A study of Homo sapiens with 8 samples.

Results

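Genes of the epithelial-mesenchymal transition (EMT) were followed in OAW42-R ovarian carcinoma cells after knockdown of the long noncoding RNA UCA1. The set holds 6 transcription factors (ZEB1, ZEB2, SNAI1, SNAI2, TWIST1 and TWIST2) and 4 structural markers of mesenchymal cells (VIM, CDH2, FN1 and CDH11). These 10 genes were taken by name, through the RefSeq accession that the array design gives each probe, from 22439 genes with a RefSeq symbol on the array. All 10 had at least 1 probe, 16 probes in all, and 6 of the 10 were bright enough to be tested among 15456 genes.

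OAW42-R is a cisplatin-resistant derivative of OAW42, an established human line from a serous ovarian tumor. All cells were transfected at 20 nM siRNA, the controls with the Lincode non-targeting pool (sictrl) and the others with a pair of Lincode siRNAs against UCA1 (siUCA1). The sample labels place RNA extraction 24 h after transfection, whereas the study's methods give a later time. Total RNA of 4 independent experiments was hybridized to 8 one-color Agilent 8x60k arrays, 4 per condition, named A1, M2, A2 and A3 in both. Each array measured bulk RNA of a whole culture, so that fewer cells expressing a gene and less RNA per cell cannot be told apart. No cells without siRNA and no second line entered the comparison.

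Levels are given on the log2 scale relative to the 75th percentile of the same array, so that 0 is the level of the spot at that percentile and a difference of 1 is a doubling. The arrays lay on 1 slide and were scanned in 1 run, and between 20858 and 24039 of 60901 spots per array were well above background. The sictrl array A3 and the siUCA1 array A1 stood apart from the rest, with a fitted surface trend of 0.321 and 0.287, against 0.0737 to 0.0943 on the other 6 arrays. Results that rest on them are therefore given with and without them. UCA1 itself was at 8.35, 8.37, 8.60 and 7.48 on the sictrl arrays A1, M2, A2 and A3 and at 3.68, 2.59, 3.02 and 3.34 on the siUCA1 arrays, a log2 fold change of -5.04 ± 0.29 (SE, n = 4 per condition, limma adjusted p = 0.000122). Of 17 ovarian carcinoma markers, 11 were well above background on all 8 arrays, among them PAX8, SOX17, EPCAM and the keratins KRT7, KRT8, KRT18 and KRT19, while WT1, MUC16, MSLN, WFDC2 and EMX2 were well above background on none. Of the 11 tested, 4 differed between the conditions at a limma adjusted p under 0.05 (36.4% beside 11.6% of all genes), 2 higher and 2 lower. FOLR1 rose by 1.05 (limma adjusted p = 0.039) and SOX17 by 0.61 (adjusted p = 0.00645), MUC1 fell by 1.74 (limma adjusted p = 0.00534), and CDH1 also fell. Of 8 fibroblast markers, 0 were well above background on all arrays, and DCN, LUM, PDGFRA, PDGFRB, COL3A1 and FAP were on none. The summed fibroblast level ran from -1.53 to -0.72 in sictrl and from -1.10 to -0.46 in siUCA1. The leukocyte marker CD14 and VWF, of 3 endothelial markers, were well above background on all 8 arrays, whereas CD3E and CDH5 were on none. The summed endothelial level ran from -0.33 to -0.03 in sictrl and from -0.14 to 0.39 in siUCA1, and the part of these lists in the results was not tested.

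In an epithelial cell, EMT denotes the loss of cell-cell junctions and polarity and the gain of a motile, mesenchymal program. Zinc finger factors of the SNAI and ZEB families and the basic helix-loop-helix TWIST factors drive it, SNAI and ZEB factors mainly by binding E-boxes in epithelial promoters such as that of CDH1, the gene of E-cadherin. Vimentin (VIM), N-cadherin (CDH2), fibronectin (FN1) and cadherin-11 (CDH11) are structural products of the mesenchymal state. Ovarian surface epithelium and its carcinomas often express epithelial and mesenchymal markers side by side.

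The E-box that SNAI and ZEB factors prefer reads CACCTG on one strand and CAGGTG on the other, a subset of the general E-box CANNTG. It was searched on both strands in the 250 bases before the outermost start of each gene (RefSeq, GRCh38.p14). Of 24882 genes with such a window, 4340 held it (17.4%). It stood before 8 of 17 epithelial genes with a window (47.1%, of 40 in that list; CDH1 and EPCAM were not searched), before 2 of 30 other mesenchymal genes (6.67%) and before 1 of 6 members. Windows were found for VIM, CDH2, FN1, TWIST2, ZEB2 and ZEB1, and the single match lay before ZEB1. This window is printed because it is the only one of a member with the motif, and those of the adaptor subunit gene AP1M2 and of the desmosomal gene DSP because they hold 3 and 2 matches (the latter pair was chosen after the matches were seen). PATJ, a polarity gene, also held 2 matches and is not printed. Capitals mark the E-box, and sequences run 5′ to 3′ on the strand of the gene.
ZEB1, chr10:31318167-31318416, plus strand: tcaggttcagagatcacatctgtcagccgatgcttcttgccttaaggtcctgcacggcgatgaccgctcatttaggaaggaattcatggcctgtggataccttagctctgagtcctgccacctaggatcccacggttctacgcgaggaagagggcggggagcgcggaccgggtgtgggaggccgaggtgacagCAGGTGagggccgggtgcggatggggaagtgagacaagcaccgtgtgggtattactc
AP1M2, chr19:10587313-10587562, minus strand: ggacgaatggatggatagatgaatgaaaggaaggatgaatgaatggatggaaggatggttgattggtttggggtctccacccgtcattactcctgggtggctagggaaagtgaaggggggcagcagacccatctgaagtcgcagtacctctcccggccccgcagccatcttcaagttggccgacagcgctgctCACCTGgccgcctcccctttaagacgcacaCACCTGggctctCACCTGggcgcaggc
DSP, chr6:7541421-7541670, plus strand: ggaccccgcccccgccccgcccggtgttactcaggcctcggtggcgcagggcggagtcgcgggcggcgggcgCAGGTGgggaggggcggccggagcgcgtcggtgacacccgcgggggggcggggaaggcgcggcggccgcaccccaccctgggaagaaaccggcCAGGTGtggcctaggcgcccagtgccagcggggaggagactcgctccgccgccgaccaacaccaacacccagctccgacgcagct
A match is a run of letters and not a measured binding site. AP1M2 had a log2 fold change of -0.37 ± 0.18 (SE, adjusted p = 0.226) and DSP one of -0.13 ± 0.17 (adjusted p = 0.672, both limma with Benjamini-Hochberg correction). PATJ gave 0.24 ± 0.37 (SE, limma adjusted p = 0.732), so that none of these genes was a DEG.

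None of the 6 tested members passed the test between siUCA1 and sictrl, in either direction. In the limma fit with Benjamini-Hochberg correction over 15456 genes, 1788 genes (11.6%) had an adjusted p under 0.05 and are called DEGs here, 884 higher and 904 lower. At an unadjusted p under 0.05 the members counted 1, TWIST2, and all genes 4263. The arrays of the 2 conditions overlapped for all 6 members, whereas 20.9% of genes with a value on every array had conditions that did not overlap. Fitted probe by probe, 0 of 8 member probes passed, against 11.5% of 19047 probes. With 6 genes, a count of 0 is no result about the list. The log2 fold changes of the 6 ran from -0.55 for TWIST2 to 0.74 for CDH2, with a median of 0.10 beside 0.03 over all genes. The count was not 0 under every setting: CDH2 and TWIST2 each passed when single arrays were left out or weighted, as given beside their values.

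**Figure D1:**
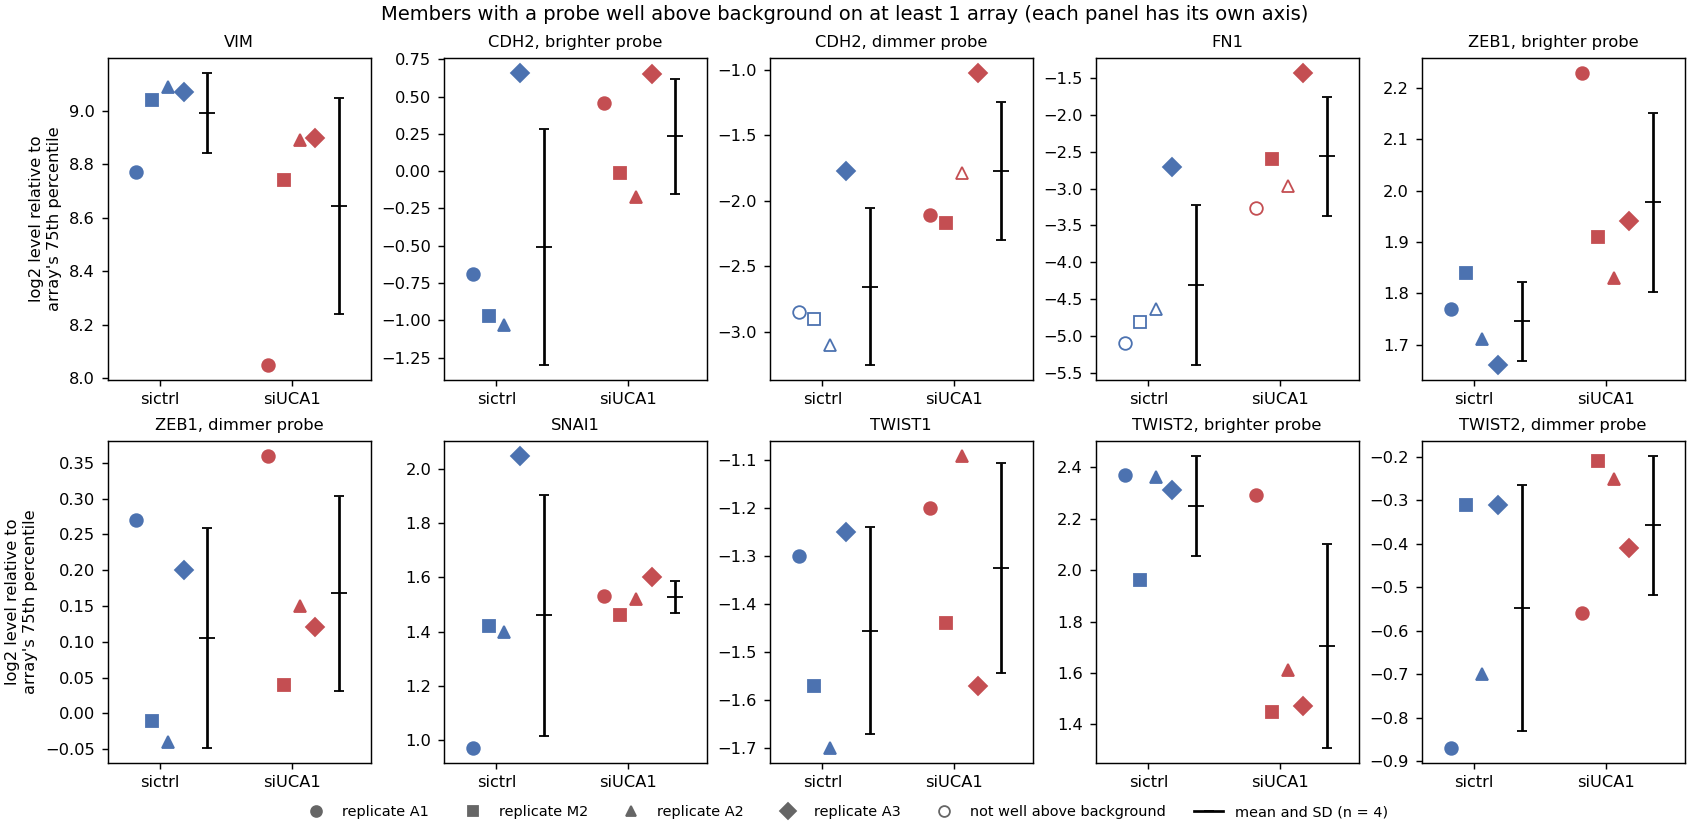
Level of each member probe that was well above background on at least 1 array, in log2 units relative to the 75th percentile of the array, with 1 point per array, the 4 experiments as symbols, hollow points where the probe was not well above background, and the mean with its SD (n = 4) beside them. CDH2 and FN1 share 1 high sictrl array, A3, at 0.66 on the brighter CDH2 probe and -2.71 on the FN1 probe, and the brighter TWIST2 probe is low on 3 of 4 siUCA1 arrays (1.45 to 1.61).

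VIM encodes vimentin, the intermediate filament of mesenchymal cells, and lies at chr10:17228241-17237593 (GRCh38.p14). Its level was 8.77, 9.04, 9.09 and 9.07 on the sictrl arrays A1, M2, A2 and A3 and 8.05, 8.74, 8.89 and 8.90 on the siUCA1 arrays. The transcript was thus far above the detection level in both conditions, with the siUCA1 array A1 lowest and the other 3 siUCA1 arrays inside or just below the sictrl range, so that the conditions overlapped. The mean went from 8.99 ± 0.15 (SD, n = 4) to 8.64 ± 0.40 (SD, n = 4), a log2 fold change of -0.35 ± 0.19 (SE, 95% confidence interval -0.78 to 0.09, limma adjusted p = 0.285). It was lower in all 4 experiments by name. A two-sided exact permutation of the arrays, which ignores the names, gave p = 0.0857 for the difference of means. Without the siUCA1 array A1 and the sictrl array A3, the difference was -0.12, without the siUCA1 array A1 alone it was -0.15, and with array weights it was -0.22. Within slide rows 1 and 2, which hold 2 arrays of each condition, it was -0.59 and -0.11.

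CDH2 encodes N-cadherin, which replaces E-cadherin in many cells that undergo EMT (chr18:27932879-28177130). Its brighter probe read -0.69, -0.97, -1.03 and 0.66 on the sictrl arrays A1, M2, A2 and A3 and 0.46, -0.01, -0.17 and 0.65 on the siUCA1 arrays. All 4 siUCA1 arrays exceeded 3 of the 4 sictrl arrays, and sictrl A3 was level with the highest siUCA1 array. Means were -0.50 ± 0.79 (SD, n = 4) and 0.23 ± 0.39 (SD, n = 4), which gives a log2 fold change of 0.74 ± 0.37 (SE, 95% confidence interval -0.11 to 1.58, limma adjusted p = 0.238). The dimmer probe, at -2.85, -2.90, -3.10 and -1.77 in sictrl and -2.11, -2.17, -1.79 and -1.02 in siUCA1, was well above background on 1 sictrl array (A3) and on 3 siUCA1 arrays (all but A2). Experiment A3 alone had this probe well above background in both conditions, with the siUCA1 array higher by 0.75, and no difference of means or test is given.
The CDH2 call turned on the sictrl array A3. Without it the log2 fold change was 1.12 (limma adjusted p = 0.016), and without both sictrl A3 and siUCA1 A1 it was 1.05 (adjusted p = 0.0187). Array weights, which give less say to arrays that lie far from their condition in these same data, gave 0.93 (adjusted p = 0.0132). As the weights come from the same values, this is no separate support for the call. Leaving out the 2 arrays of experiment A3 gave 0.98 (adjusted p = 0.0295). Leaving out any other single array left CDH2 without a call, at 0.56 to 0.87, and another background correction (normexp) lowered the value to 0.39 (limma adjusted p = 0.501). Within the slide row that lacks sictrl A3 the difference was 1.55, and within the row that holds it -0.08. The part of the surface trend in these values was not tested.

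FN1 encodes the matrix glycoprotein fibronectin (chr2:215360865-215436068), and its only probe is assigned to NM_054034, a short transcript of the gene. It read -5.09, -4.81, -4.63 and -2.71 on the sictrl arrays A1, M2, A2 and A3 and -3.26, -2.60, -2.97 and -1.43 on the siUCA1 arrays. Only sictrl A3 and the siUCA1 arrays M2 and A3 were well above background, so FN1 was not entered into the fit. Experiment A3 was the only one with FN1 well above background in both conditions, and there the siUCA1 array was higher by 1.28. Over all arrays the difference of means was 0.56 when values below the detection level of an array were raised to that level, and no test is given. Part of this difference is not FN1 signal: on siUCA1 A2 the reading of -2.97 was raised to -2.11, the highest detection level of any array.
CDH11, a cadherin of mesenchymal and bone-forming cells (chr16:64943753-65123744), was well above background on no array. Its probe lay between -5.14 and -4.69 in sictrl and between -5.06 and -4.08 in siUCA1, so that no fold is given.

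ZEB1 represses epithelial genes and is itself held down by the miR-200 family (chr10:31318417-31529804). Its brighter probe read 1.77, 1.84, 1.71 and 1.66 on the sictrl arrays A1, M2, A2 and A3 and 2.23, 1.91, 1.83 and 1.94 on the siUCA1 arrays. Levels were tight in sictrl, and the lowest siUCA1 array fell just short of the highest sictrl array. The log2 fold change was 0.23 ± 0.11 (SE, 95% confidence interval -0.02 to 0.48, limma adjusted p = 0.211), higher in all 4 experiments by name. The exact permutation of the arrays, regardless of name, gave p = 0.0571 for the difference of means. The dimmer probe of the same transcript gave 0.06 ± 0.11 (SE, adjusted p = 0.791), higher in 3 of 4 experiments. Without sictrl A3 and siUCA1 A1 the brighter probe gave 0.12, with array weights 0.13, with median scaling 0.14 and without siUCA1 A1 0.15.
ZEB2, the second member of that family (chr2:144384081-144520119), has 3 probes on the array, and none was well above background on any array. They lay between -5.22 and -3.87 in sictrl and between -5.19 and -3.51 in siUCA1.

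SNAI1, the Snail repressor of CDH1, lies at chr20:49982980-49988886. It was at 0.97, 1.42, 1.40 and 2.05 on the sictrl arrays A1, M2, A2 and A3 and at 1.53, 1.46, 1.52 and 1.60 on the siUCA1 arrays. The siUCA1 arrays lay close together, above 3 of the sictrl arrays and below sictrl A3. The SD over 4 arrays was 0.44 with sictrl and 0.06 with siUCA1, and the log2 fold change was 0.07 ± 0.20 (SE, 95% confidence interval -0.38 to 0.52, limma adjusted p = 0.867). This value had no settled sign, since it was -0.03 when arrays were scaled to their median and -0.09 without sictrl A1. Without sictrl A3, and without sictrl A3 and siUCA1 A1, it was 0.26 (limma adjusted p = 0.21 and 0.204). SNAI2 (Slug), the other Snail factor, was well above background on no array, at -5.41 to -4.94 in sictrl and -5.36 to -4.18 in siUCA1.

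TWIST1, a helix-loop-helix factor of mesoderm that acts as a dimer with E proteins (chr7:19113047-19117636), was measured by 1 of its 2 probes. That probe read -1.30, -1.57, -1.70 and -1.25 on the sictrl arrays A1, M2, A2 and A3 and -1.20, -1.44, -1.09 and -1.57 on the siUCA1 arrays. The conditions overlapped broadly, and the log2 fold change was 0.13 ± 0.15 (SE, 95% confidence interval -0.21 to 0.47, limma adjusted p = 0.626). It was 0.03 with median scaling, 0.08 with normexp, 0.05 without sictrl A2 or siUCA1 A2, 0.20 without sictrl A3, 0.21 without siUCA1 A3, and 0.28 with array weights and without both A3 arrays, and was called in none of these. The second probe was well above background on no array.

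TWIST2 (Dermo-1), a close relative that is active in dermal and other mesenchymal cells, lies at chr2:238848085-238910534. The brighter probe, assigned to NM_001271893, read 2.37, 1.96, 2.36 and 2.31 on the sictrl arrays A1, M2, A2 and A3 and 2.29, 1.45, 1.61 and 1.47 on the siUCA1 arrays. The sictrl values lay close together apart from a lower M2, and the siUCA1 array A1 lay at the sictrl level while the other siUCA1 arrays were lower. The means of 2.25 ± 0.19 (SD, n = 4) and 1.70 ± 0.39 (SD, n = 4) differed by -0.55 ± 0.20 (SE, 95% confidence interval -0.99 to -0.10). The limma p was 0.0215 before correction, and the adjusted p was 0.11. The brighter probe was lower in all 4 experiments by name. The exact permutation of the arrays, regardless of name, gave p = 0.0571 for the difference of means. Here the call turned on the siUCA1 array A1. Without it the log2 fold change was -0.74 (limma adjusted p = 0.00964), without both sictrl A3 and siUCA1 A1 it was -0.72 (adjusted p = 0.0116), and with array weights -0.64 (adjusted p = 0.00827).
The dimmer TWIST2 probe, assigned to NM_057179, did not show this fall. It read -0.87, -0.31, -0.70 and -0.31 in sictrl and -0.56, -0.21, -0.25 and -0.41 in siUCA1, a difference of 0.19 ± 0.16 (SE, limma adjusted p = 0.475) of the opposite sign. When both probes were averaged, TWIST2 differed by -0.18. Which probe stands for the main transcript was not tested.

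**Figure D2:**
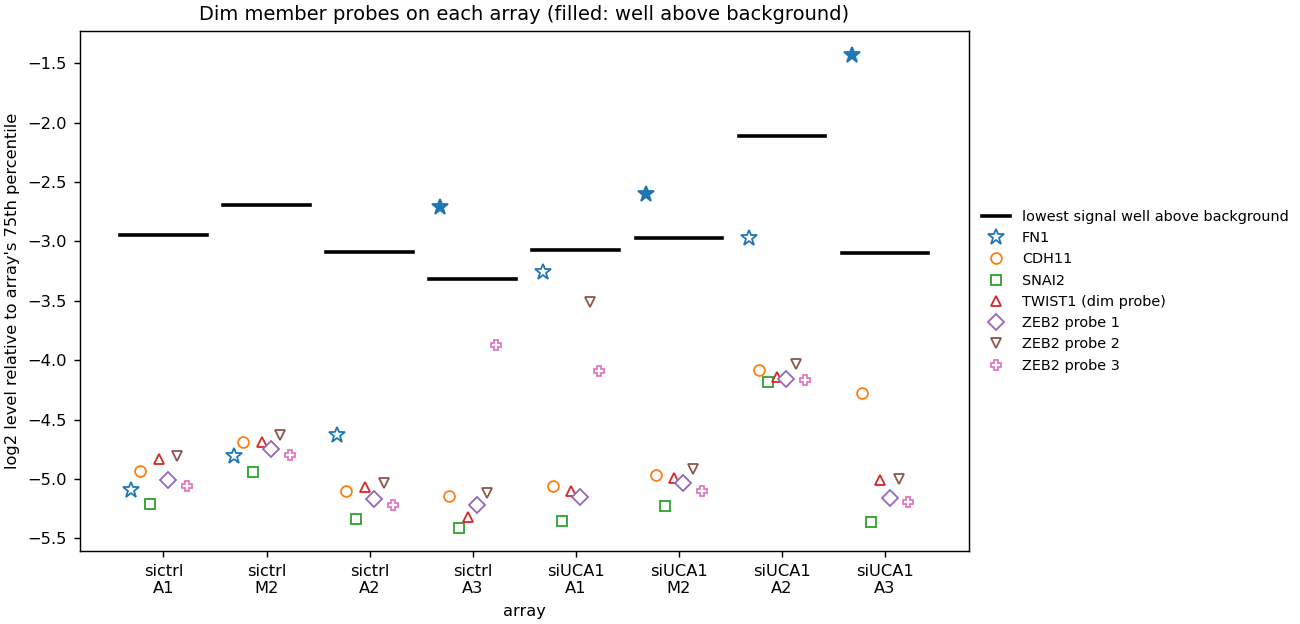
Levels of the member probes that were well above background on few arrays or on none, in log2 units relative to the 75th percentile of each of the 8 arrays, with the black bar at the lowest signal well above background on that array and filled symbols where a probe was well above background. FN1 (stars) is filled on sictrl A3 and on siUCA1 M2 and A3 only, the SNAI2, CDH11, ZEB2 and second TWIST1 probes are hollow throughout, and the bar is highest on siUCA1 A2 (-2.11).

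The detection level bounds what can be said of the dim members. The lowest signal well above background lay between -3.32 and -2.69 on 7 arrays and at -2.11 on siUCA1 A2, where the 6 member probes that were well above background nowhere were also all brighter than on siUCA1 M2. The higher values of SNAI2, CDH11 and ZEB2 on siUCA1 A2 are therefore not read as expression. ZEB2, SNAI2 and CDH11 were not detectable on these arrays with either siRNA.

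On the sictrl array A3, SNAI1, both CDH2 probes, FN1 and the tested TWIST1 probe (-1.25) had their highest sictrl values. The brighter ZEB1 probe (1.66) and the brighter UCA1 probe (7.48) had their lowest there, although the dimmer UCA1 probe read 5.13 against 5.05 to 5.29 on the other 3. VIM and the brighter TWIST2 probe lay there within the range of the other sictrl arrays. On the siUCA1 array A1, VIM had its lowest value of that condition, and the brighter ZEB1 and TWIST2 probes their highest, while the dimmer TWIST2 probe was lowest there. None of the 6 members was called with the slide row or the slide column as a block in the fit.

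**Figure D3:**
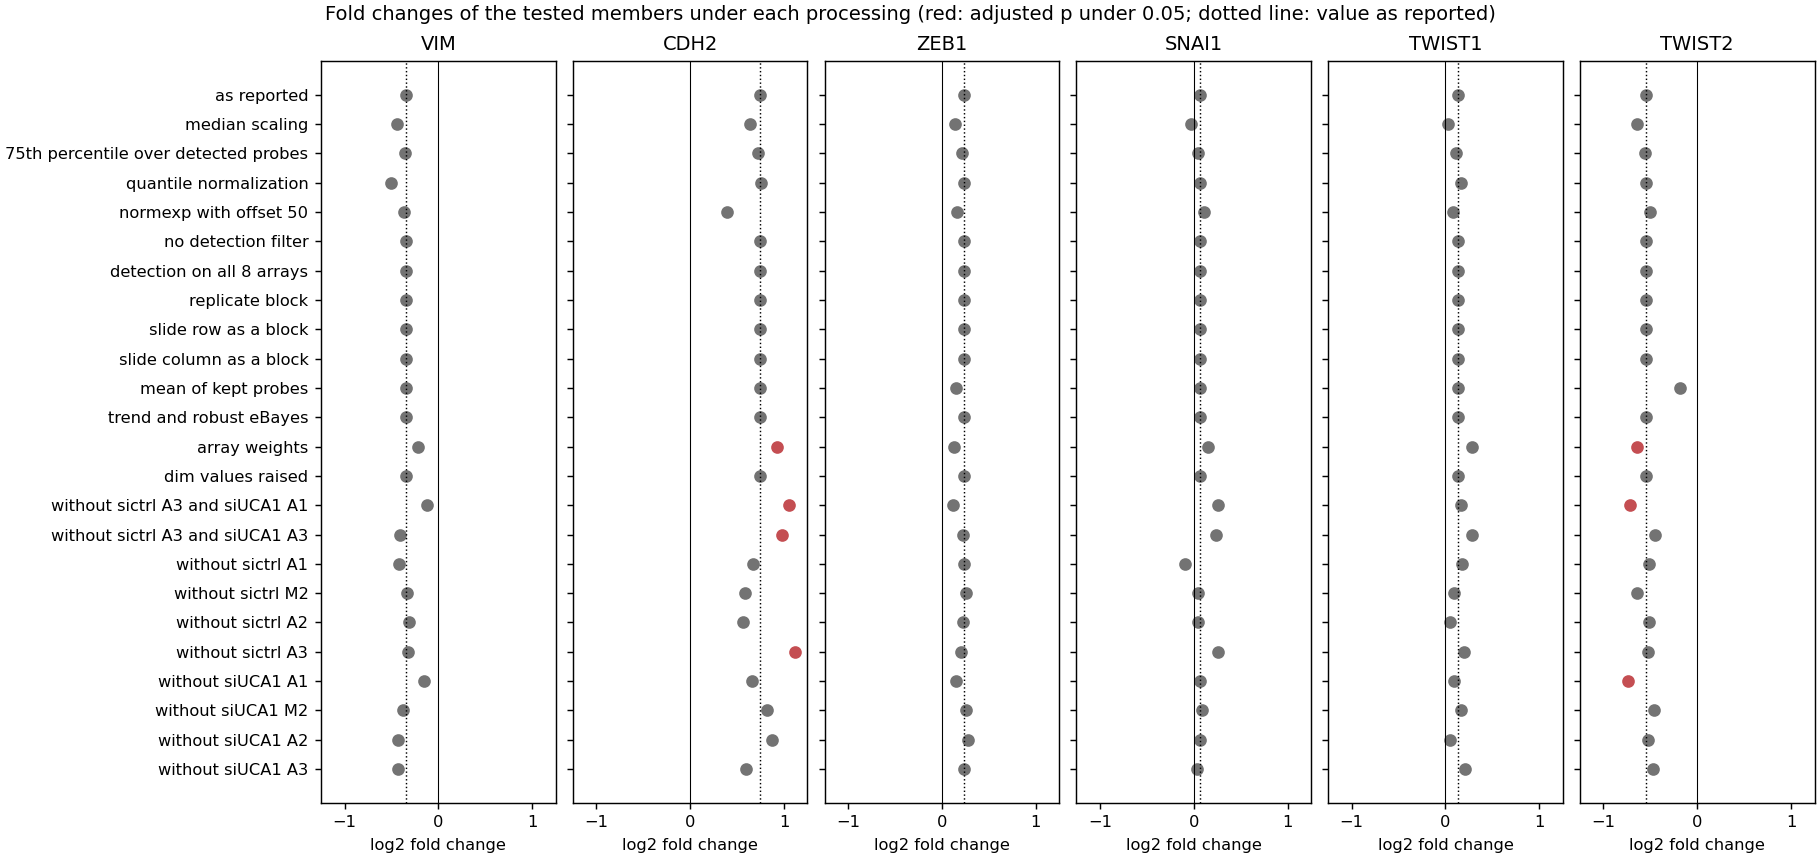
Log2 fold change of siUCA1 against sictrl (horizontal axis) for the 6 tested members under the reported processing and each of 23 alternatives (vertical axis), with red points where the limma adjusted p was under 0.05. CDH2 turns red in 4 settings that leave out sictrl A3 or weight the arrays, TWIST2 in 3 that leave out siUCA1 A1 or weight the arrays, and SNAI1 crosses 0 under median scaling and without sictrl A1.

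Epithelial genes that these factors act on were read from the same fit. Of 40 such genes, 31 were tested and 6 were DEGs, 2 higher and 4 lower, a share of 19.4% beside 11.6% of all genes, with a median log2 fold change of -0.09 beside 0.03. CDH1, the gene of E-cadherin and the classic target of SNAI and ZEB factors, fell. Its level was 3.68, 3.19, 3.31 and 3.32 on the sictrl arrays A1, M2, A2 and A3 and 2.92, 2.31, 2.57 and 2.45 on the siUCA1 arrays, so that every siUCA1 array was below every sictrl array. The log2 fold change was -0.81 ± 0.16 (SE, n = 4, limma adjusted p = 0.0149), and within the slide rows it was -0.56 and -1.06. The call was lost without the 2 arrays of experiment A3 (-0.79, adjusted p = 0.0563) and without the detection filter.
MARVELD2 (tricellulin, which seals junctions where several cells meet) fell by 0.69 (limma adjusted p = 0.00519), TJP3 (the scaffold ZO-3 of tight junctions) fell by 0.52 (adjusted p = 0.0283) and PKP3 (plakophilin, of desmosomes) fell by 0.34 (adjusted p = 0.04). LLGL2, a polarity protein of the basolateral membrane, rose by 0.46 (limma adjusted p = 0.0156), although a second LLGL2 probe gave 0.26 ± 0.11 (SE, adjusted p = 0.162 in the fit by probe). KLF5, an epithelial transcription factor, rose by 0.35 (limma adjusted p = 0.04). KLF5 and PKP3 lost their calls without any 1 array other than siUCA1 A1, at 0.31 to 0.38 and -0.36 to -0.30 over the 8 fits that leave out 1 array. TJP3 lost its call without sictrl A1, M2 or A2 or siUCA1 M2 or A2 (-0.58 to -0.45 over the 8 fits), and LLGL2 without sictrl M2 or A2 or siUCA1 A2 (0.44 to 0.51). EPCAM, an adhesion molecule, was at 6.92, 7.02, 7.08 and 6.82 in sictrl and 7.10, 7.38, 7.54 and 7.80 in siUCA1, with a log2 fold change of 0.50 that did not pass (limma adjusted p = 0.0675). It passed without siUCA1 A1 (0.61, adjusted p = 0.0191). The splicing factor ESRP2 gave -0.15 (limma adjusted p = 0.417) and the polarity gene CRB3 -0.02 (adjusted p = 0.946). CLDN7 was well above background on 1 array at most, and ESRP1, GRHL2 and OVOL1 on none, while no probe was matched to OVOL2.

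**Figure D4:**
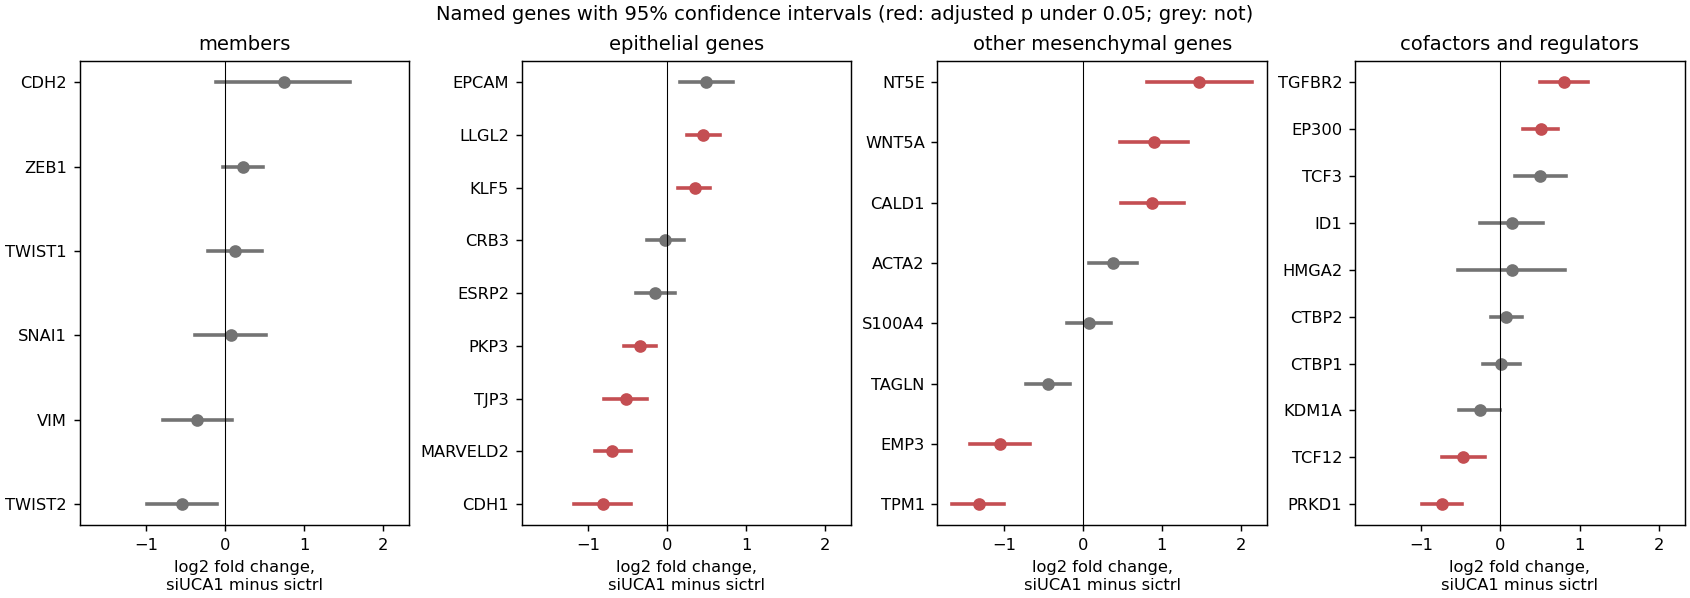
Log2 fold change of siUCA1 against sictrl with its 95% confidence interval (horizontal axis) for the tested members and for the named genes of the epithelial, other mesenchymal and cofactor lists (vertical axis), red where the limma adjusted p was under 0.05. No member is red, and red genes lie on both sides of 0 in each other list, from -1.32 (TPM1) to 1.47 (NT5E), while SNAI1, S100A4, CTBP1 and CTBP2, all near 0, change sign under another scaling of the arrays.

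Other genes that accompany the mesenchymal state moved in both directions. Of 56 such genes, 24 were tested and 5 were DEGs, 3 higher and 2 lower (20.8% beside 11.6% of all genes), with a median log2 fold change of 0.00. NT5E, the surface nucleotidase CD73, rose from -0.68, -1.40, -1.24 and -0.40 on the sictrl arrays A1, M2, A2 and A3 to 1.18, 0.24, 0.06 and 0.70 on the siUCA1 arrays, a log2 fold change of 1.47 ± 0.29 (SE, n = 4, limma adjusted p = 0.0157). A second NT5E probe rose by 1.17 (adjusted p = 0.00795 in the fit by probe). With normexp the NT5E log2 fold change was 0.72 (limma adjusted p = 0.0243). The noncanonical Wnt ligand WNT5A rose by 0.90 (limma adjusted p = 0.0194) and CALD1, the actin-binding protein caldesmon, by 0.88 (adjusted p = 0.0164). NT5E lost its call without sictrl A2 (1.37, adjusted p = 0.0542), CALD1 without siUCA1 A2 (0.84, adjusted p = 0.057), and WNT5A without any 1 of sictrl A2 (0.88, adjusted p = 0.0632) and the siUCA1 arrays M2, A2 and A3 (0.91, 0.91 and 0.83, adjusted p = 0.0538, 0.0582 and 0.0546). With the slide column as a block, WNT5A and CALD1 also lost their calls (adjusted p = 0.0578 and 0.0565), which left 3 in this list.
TPM1, a tropomyosin of actin filaments, fell from 6.22, 6.70, 6.63 and 6.68 on the sictrl arrays A1, M2, A2 and A3 to 5.15, 5.49, 5.25 and 5.04 on the siUCA1 arrays. Its log2 fold change was -1.32 ± 0.14 (SE, n = 4, limma adjusted p = 0.002), it was a DEG under all 23 alternatives run, and 2 further TPM1 probes gave -1.11 and -1.10. EMP3, a small membrane glycoprotein, fell by 1.05 (limma adjusted p = 0.00737). TAGLN, the smooth muscle protein transgelin, gave -0.44 (limma adjusted p = 0.0545) and passed without sictrl A2 (-0.54, adjusted p = 0.0378). ACTA2, smooth muscle actin, gave 0.38 (limma adjusted p = 0.101) and passed without siUCA1 A1 (0.48, adjusted p = 0.0279). S100A4, a calcium-binding protein of motile cells, gave 0.08 (adjusted p = 0.73, with a negative sign under median and quantile scaling). The factors PRRX1 and TCF4 were well above background on no array. In all, 32 of the 56 genes were too dim to be tested.

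Cofactors and regulators of the EMT factors had 4 DEGs among 37 tested genes of 43 (10.8% beside 11.6%), 2 higher and 2 lower, with a median log2 fold change of 0.04. TGFBR2, a receptor of the EMT-inducing ligand TGF-beta, rose from 4.46, 4.52, 4.39 and 4.74 on the sictrl arrays to 5.03, 5.48, 5.30 and 5.52 on the siUCA1 arrays (named A1, M2, A2 and A3 in turn), by 0.80 ± 0.14 (SE, n = 4, limma adjusted p = 0.00884). EP300, a histone acetyltransferase, rose by 0.51 (limma adjusted p = 0.0132). TGFBR2 lost its call with median scaling (0.71, limma adjusted p = 0.108), with normexp (0.72, adjusted p = 0.0815) and without the detection filter (adjusted p = 0.145). EP300 lost its call with median scaling (0.41, limma adjusted p = 0.372), with normexp and without the detection filter. PRKD1, a kinase that phosphorylates SNAI1, fell by 0.74 (limma adjusted p = 0.00604), and TCF12, an E protein that pairs with TWIST factors, fell by 0.47 (adjusted p = 0.0375). TCF12 lost its call without any 1 array other than siUCA1 A1, at -0.56 to -0.41 over the 8 fits that leave out 1 array. TCF3, another E protein, was at 4.17, 3.89, 3.99 and 3.52 in sictrl and 4.25, 4.42, 4.49 and 4.42 in siUCA1. Every siUCA1 array lay above every sictrl array, but the log2 fold change of 0.50 did not pass (limma adjusted p = 0.055). It passed without sictrl A1 (0.59, limma adjusted p = 0.0451) and without siUCA1 A1 (0.55, adjusted p = 0.0498).
The SNAI1 partner KDM1A, a histone demethylase, gave -0.26 (limma adjusted p = 0.172). The corepressors CTBP1 and CTBP2, which ZEB factors recruit, gave 0.01 and 0.07 (limma adjusted p = 0.951 and 0.633), and both were negative when arrays were scaled to their median. ID1, which sequesters E proteins, gave 0.14 (limma adjusted p = 0.657). FBXL14, of a ubiquitin ligase for EMT factors, was well above background on no array.

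HMGA2, a chromatin protein that induces SNAI1 and TWIST1 in TGF-beta signaling, was the gene whose probes differed most among those named. Its brighter probe, assigned to NM_001300918, gave 0.14 ± 0.30 (SE, limma adjusted p = 0.81) and changed sign without sictrl A1 and with array weights. The mean of both probes differed by 1.57, but this takes in sictrl readings of the dimmer probe below background, so no test of it is given. The dimmer probe, assigned to NM_003483, read -5.27, -5.01, -5.30 and -2.31 on the sictrl arrays A1, M2, A2 and A3 and -2.20, -1.29, -1.23 and -1.13 on the siUCA1 arrays. It was well above background on sictrl A3 only in that condition and on all 4 siUCA1 arrays, each of which exceeded every sictrl array. The probe entered the fit through the siUCA1 arrays alone, so no test is given. The difference of means was 1.30 when values below the detection level were raised to that level. As with CDH2 and FN1, sictrl A3 was the high array among the controls.

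Of 8 antisense or divergent RNAs of the members, 3 had a probe and 1 was tested. VIM-AS1, transcribed opposite VIM, averaged 0.32 ± 0.17 with sictrl and -0.04 ± 0.24 with siUCA1 (SD of 4 arrays each), and its log2 fold change was -0.36 ± 0.14 (SE, limma adjusted p = 0.145) beside -0.35 for VIM. ZEB1-AS1 and ZEB2-AS1 were well above background on no array.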

How the data were processed

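RNA of OAW42-R cells was compared between sictrl and siUCA1 on 8 arrays, grouped by their sample labels. The members and gene lists were chosen with earlier results of these data known.

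The authors deposited the Feature Extraction output (version 10.7.3.1 per the submitters' processing notes), whose processed signal is an intensity on a linear scale per spot, already corrected for background and surface trend and not normalized between arrays. The methods name limma with Benjamini-Hochberg correction and no filter or scaling.

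From it, log2 values minus the 75th percentile of each array's non-control spots were computed, without control and outlier spots. The mean over a probe's spots was taken, and probes well above background on all 4 arrays of either condition were kept. The kept probe with the highest mean stood for its gene. Accessions were named through RefSeq (GRCh38.p14), for 31104 of 58201 probes. All kept genes were fitted with limma 3.58.1 (R 4.3.3, the data.table package, version 1.17.8); DEGs had an adjusted p under 0.05. Single probes were compared by two-sided exact permutation (smallest p 0.0286). The procedure was tested on simulated data. Windows were searched with pandas 2.3.3 and figures drawn with matplotlib 3.10.9 (Python 3.11.15). The number of arrays and the background limit the precision.

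Named in the text are all members, UCA1, genes fixed by name in 3 lists, and up to 4 called genes with the largest rise and fall of each list. Markers used to check the cells, and AP1M2, DSP and PATJ, come in addition. Some genes of these lists are not reported here.

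Alternatives were other scalings and background correction, detection filters, replicate and slide row blocks, averaged probes, variance models, array weights, raised dim values and left-out arrays. The slide column block and leaving out both A3 arrays were chosen after seeing the data. The replicate names were not taken as pairs in the reported fit, and a fit with the names as a block is given as an alternative. Arrays of the same name deviated together with correlations of 0.04 to 0.28, and arrays of different names with -0.31 to 0.21.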

Additional observations from a re-analysis of the deposited data

Results flagged for a closer look

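Among 78 sets of 4 arrays (the named genes and member probes, and the surface trend, each in sictrl and in siUCA1), 5 had 1 array far from the other 3 relative to the whole range (6.41%, where chance gives about 1 in 20). VIM was lowest on sictrl A1, at 8.77 against 9.04 to 9.09 on the other sictrl arrays (gap over range 0.844). The brighter TWIST2 probe was lowest on sictrl M2, at 1.96 against 2.31 to 2.37 (0.854). TPM1 was lowest on sictrl A1, at 6.22 against 6.63 to 6.70 (0.854). The fitted surface trend was highest on sictrl A3, at 0.321 against 0.079 to 0.0925 (0.944), and on siUCA1 A1, at 0.287 against 0.0737 to 0.0943 (0.903).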

How the results depend on the processing

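The counts depended on the processing more than the fold changes did. Against 1788 DEGs as reported, there were 535 with median scaling, 416 with normexp, 76 of 47753 genes without a detection filter, 4802 with array weights, 3878 without sictrl A3 and siUCA1 A1, and 760 (without sictrl A2) to 2290 (without siUCA1 A1) when 1 array was left out. Median scaling lowered the median log2 fold change of all genes from 0.03 to -0.07 and the share of DEGs that were higher from 49.4% to 21.3%. Of the 6 tested members, 0 were called as reported. With array weights 2 were called (CDH2 and TWIST2), beside 4802 of 15456 genes. The same 2 were called without sictrl A3 and siUCA1 A1, beside 3878 of 15991 genes. Without the A3 arrays of both conditions 1 was called (CDH2), beside 1467 of 15943 genes. When 1 array was left out, 0 to 1 were called. These were CDH2 without sictrl A3 (beside 2193 of 15932 genes) and TWIST2 without siUCA1 A1 (beside 2290 of 15633). VIM, CDH2, ZEB1, TWIST1 and TWIST2 kept their direction under all 23 alternatives.

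Signs changed in 7 genes whose reported values lay between -0.02 and 0.14, and the cause was not tested. With median scaling SNAI1 was -0.03, S100A4 -0.02, CTBP1 -0.08 and CTBP2 -0.02. With quantile scaling S100A4 was -0.09, and with normexp S100A4 was -0.07 and CTBP2 -0.03. CTBP1 was 0 (just below) with the percentile over detected probes. Array weights gave CTBP1 -0.01 and HMGA2 -0.07, and CRB3 was 0.03 without sictrl A3 and siUCA1 A1. Over the 8 fits without 1 array, SNAI1 ran from -0.09 to 0.26, CRB3 from -0.09 to 0.03, ID1 from -0.01 to 0.23, CTBP1 from -0.03 to 0.08 and HMGA2 from -0.13 to 0.32.

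With a replicate block (the replicate name as a block in the fit), 1727 genes and 0 members were called. The epithelial, other mesenchymal and cofactor lists then had 9, 6 and 5 calls, against 6, 5 and 4 as reported. Arrays of the same name deviated together with correlations of 0.04 (A1), 0.28 (M2), 0.22 (A2) and 0.13 (A3) over 15447 genes, and siUCA1 A1 correlated best with sictrl A3 (0.18). ACTA2 gained a call in that fit (adjusted p = 0.0479) and PKP3 lost its call (adjusted p = 0.0529).

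Calls in the epithelial, other mesenchymal and cofactor lists were 6, 5 and 4 as reported, beside 1788 of 15456 genes. They were 1, 3 and 1 with median scaling (535 of 15456 genes) and 1, 3 and 0 with normexp (416 of 15456). Without a detection filter they were 0, 1 and 0 (76 of 47753 genes). With array weights they were 14, 12 and 9 (4802 of 15456 genes), and without sictrl A3 and siUCA1 A1 10, 10 and 8 (3878 of 15991). Counts over all genes thus moved in the same direction in each of these settings. When 1 array was left out, the epithelial count ran from 2 (without sictrl M2, sictrl A2 or siUCA1 A2) to 9 (without siUCA1 A1). The other 2 lists ran from 3 (without siUCA1 A2) to 7 and from 3 to 6, beside 760 to 2290 over all genes. With normexp MARVELD2 (-0.51), TJP3 (-0.27) and PRKD1 (-0.46) were among the genes that lost their calls (limma adjusted p = 0.0709, 0.364 and 0.123). The others were LLGL2 (adjusted p = 0.164), KLF5 (0.272), PKP3 (0.168), WNT5A (0.102), CALD1 (0.0529), TGFBR2 (0.0815), TCF12 (0.118) and EP300. As blocks, slide row and column ended the calls of KLF5 (adjusted p = 0.07 and 0.0854), PKP3 (0.0679 and 0.0901) and TCF12 (0.0554 and 0.0522). ZEB2, SNAI2 and CDH11 were limited by signal over background.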
